A study of Mus musculus with 48 samples.

Results

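The levels of 10 genes of glucose uptake and glycolysis were followed through 40 of the 48 samples of the series: the glucose transporters Slc2a1 and Slc2a3, the hexokinases Hk1 and Hk2, the phosphofructokinase subunits Pfkl and Pfkp, the aldolase Aldoa, the phosphoglycerate kinase Pgk1, the pyruvate kinase Pkm and the lactate dehydrogenase subunit Ldha. They were listed by symbol and pathway role, with earlier results of these data known, and are 10 of the 22173 genes in the count table of the series. All 10 passed the low-count filter in the mouse gonadal somatic cells (GSCs). In the FPKM table of the cultures 9 of the 10 could be used, because the row named Aldoa there held fragments of another gene, and all 10 were found by Ensembl identifier in the single-cell library.

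The study sequenced GSCs of 3 fetal ages, named by embryonic day as E12.5, E13.5 or E16.5, and of ovaries of 6-week-old mice (P6w), 2 libraries each, all from C57BL/6 animals and all as the cells that remained after germ cells carrying SSEA1 were held back on a magnetic column. It also sequenced female embryonic stem cells (ESCs) moved out of 2i and LIF into medium without compound (Con), with vitamin C (Vc), with AM580, an agonist of the retinoic acid receptor, or with both (V580), at 24 and 48 h with 2 libraries each. V580 cultures were sampled again on days 4, 6, 8 and 10 (V580_D4 to V580_D10) beside cells from E12.5 female gonads (E12.5_GC), with 3 libraries each, and 1 droplet library held single cells of V580_D6. The ESCs had been kept on mouse fibroblast feeders, which were reduced by their faster adherence before plating. The other 8 samples, which are libraries of primordial germ cells, were not analysed here. The FPKM table heads its Vc columns C and its AM580 columns X580, which were matched to samples through the second names in the labels. The Con libraries are called by the times in their labels, although the study's text places its controls at the start of induction. The labels do not say that replicates were separate cultures or litters, so each p-value measures the spread between these libraries, which may be technical. Total counts were 12694769 to 22259044 per GSC library, and the FPKM values correspond to about 16400000 to 28300000 fragments per library. A lower level in bulk RNA can come from fewer cells of a type or from less RNA per cell, and these cannot be told apart here.

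Glucose enters most cells through facilitative transporters of the SLC2A family, of which Slc2a1 (GLUT1) serves basal uptake and Slc2a3 (GLUT3) has a high affinity for glucose. Hexokinase traps glucose as its phosphate, phosphofructokinase makes the committed step, aldolase splits the sugar, and phosphoglycerate kinase and pyruvate kinase then yield ATP, while lactate dehydrogenase turns pyruvate into lactate. Pluripotent cells are known for a high rate of glycolysis, and the somatic cells of the ovary supply pyruvate to oocytes. Many genes of this route are textbook targets of the hypoxia-inducible factor HIF-1, whose alpha subunits are marked for decay by prolyl hydroxylases, and these enzymes use ascorbate as a cofactor in keeping their iron reduced.

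The 250 bases before the start site are shown for Pfkl, Pgk1 and Slc2a1, the 3 members that fell most with Vc at 48 h. They are also shown for Ldha, the most abundant of the 10 per length in the GSC libraries of the fetal ages and P6w. They were picked after those values were seen. Sequences are from RefSeq (GRCm38.p6) on the gene's strand, 5′ to 3′. Capitals mark ACGTG or GCGTG on either strand (CACGT and CACGC on the strand shown), the core letters of the hypoxia response element.

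Ldha, chr7:46845554-46845803, + strand: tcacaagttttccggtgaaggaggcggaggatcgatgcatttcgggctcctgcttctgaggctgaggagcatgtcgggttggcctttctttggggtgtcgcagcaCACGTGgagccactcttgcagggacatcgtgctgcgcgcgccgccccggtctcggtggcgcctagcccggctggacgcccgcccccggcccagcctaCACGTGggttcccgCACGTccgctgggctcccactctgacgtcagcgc
Pgk1, chrX:106186850-106187099, + strand: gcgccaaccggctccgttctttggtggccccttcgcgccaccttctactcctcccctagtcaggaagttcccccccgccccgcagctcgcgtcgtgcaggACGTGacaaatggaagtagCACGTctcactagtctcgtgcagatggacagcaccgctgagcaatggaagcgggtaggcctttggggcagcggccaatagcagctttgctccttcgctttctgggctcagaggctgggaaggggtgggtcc
Pfkl, chr10:78009808-78010057, - strand: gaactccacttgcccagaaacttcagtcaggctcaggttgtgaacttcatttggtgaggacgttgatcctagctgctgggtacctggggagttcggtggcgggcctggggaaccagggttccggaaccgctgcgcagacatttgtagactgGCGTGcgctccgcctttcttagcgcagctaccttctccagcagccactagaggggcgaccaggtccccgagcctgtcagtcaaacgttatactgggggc
Slc2a1, chr4:119108495-119108744, + strand: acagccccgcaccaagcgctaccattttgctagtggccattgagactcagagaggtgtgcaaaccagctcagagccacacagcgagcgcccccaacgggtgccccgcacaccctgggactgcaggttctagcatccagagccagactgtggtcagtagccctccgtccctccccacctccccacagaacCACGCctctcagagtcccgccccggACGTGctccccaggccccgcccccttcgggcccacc

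The Ldha promoter shown, the first of 2 in the table, held 5 matches of ACGTG, of which 2 overlapping pairs spell CACGTG, the Pgk1 promoter held 2 matches of ACGTG, the Slc2a1 promoter held 1 of ACGTG and 1 of GCGTG, and the Pfkl promoter held 1 of GCGTG. Of all 32851 mouse promoters of this length, 38.6% held either motif, 16.6% held ACGTG and 1.22% held ACGTG at least 3 times. The second Ldha promoter held no ACGTG and 1 GCGTG. The 9 members with an entry had 14 promoters there, of which 11 held either motif and 7 held ACGTG. A match is a run of letters and not a measured site.

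The effect of Vc on these genes was read first at 48 h. With Vc, 8 of the 9 genes were lower than in Con and none was higher, while 6.07% of the 10644 genes tested were called lower and 12.4% were called in either direction (limma on log2(FPKM + 1) over the 16 treatment libraries, Benjamini-Hochberg adjusted p below 0.05). Without any 1 of the 4 libraries the genes called in all fell from 1324 to between 576 and 715. The median difference was -0.47 over the 9 genes and 0.00 over all genes, on a scale that understates the change of low genes. The summed level of the 9 genes was 2367 ± 41.5 FPKM in Con and 1608 ± 23.2 FPKM with Vc (SD, n = 2).

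**Figure D1:**
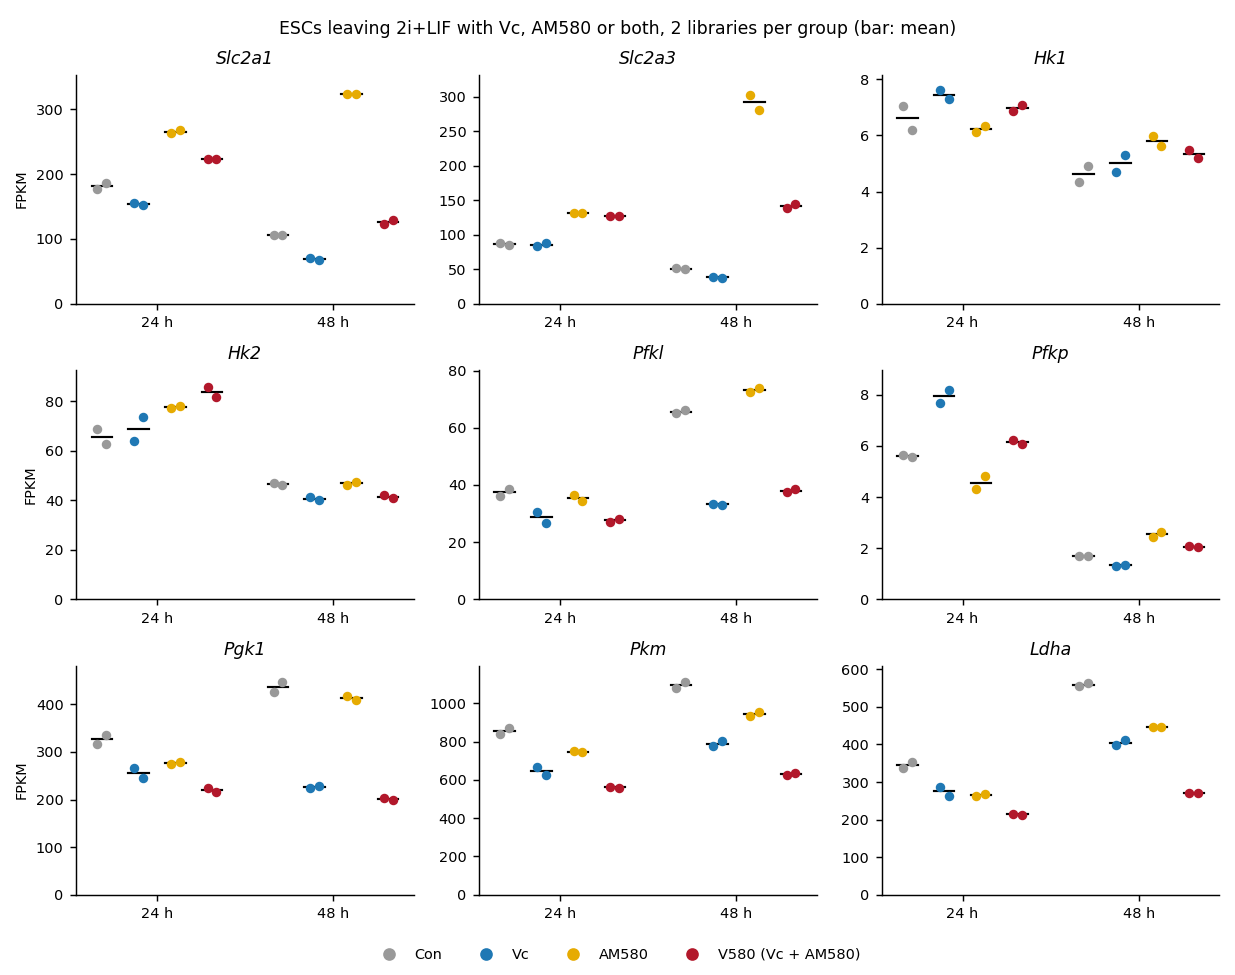
FPKM of the 9 usable genes in each treatment library at 24 and 48 h, 1 point per library and a bar at the mean of the 2 libraries, each panel with its own axis from 0. At 48 h Pfkl and Pgk1 separate the libraries with Vc (alone or in V580) from those without it, and Slc2a1 and Slc2a3 stand highest with AM580 alone.

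Pfkl and Pgk1 moved most. Pfkl, the liver-type subunit of phosphofructokinase, was at 65.1 and 66.1 FPKM in the Con_48h libraries and at 33.4 and 32.9 FPKM in the Vc_48h libraries. Its level fell by 0.96 ± 0.05 on the log2 scale (SE, adjusted p = 5.55e-08 by limma), about as much as Pgk1, which makes the first ATP of the pathway. Pgk1 was at 426.5 and 446 FPKM in Con_48h and at 225.1 and 228 FPKM in Vc_48h, a log2 change of -0.94 ± 0.05 (adjusted p = 1.72e-08 by limma). The libraries of the 2 groups did not overlap for either gene.

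The transporters and the last steps of the route were lower as well. Slc2a1 was at 105.7 and 106.5 FPKM in Con_48h and at 70.1 and 67.7 FPKM with Vc (log2 change -0.62 ± 0.04), and Slc2a3 went from 51.4 and 49.7 FPKM to 39.1 and 37.9 FPKM (-0.39 ± 0.04). Pkm, which releases pyruvate, was at 1081 and 1112 FPKM in Con_48h against 778 and 800.4 FPKM with Vc (-0.47 ± 0.04). Ldha, which forms lactate, was at 555.2 and 563 FPKM against 399 and 411 FPKM (-0.47 ± 0.04). These 4 genes passed with adjusted p between 2.19e-07 and 5.38e-05 (limma), with no overlap of libraries. Hk2 (-0.19, adjusted p = 0.0418 by limma) and Pfkp (-0.21, adjusted p = 0.0295) passed by little, and both calls were lost when any 1 of the 4 libraries was left out, with values of -0.17 to -0.21 for Hk2 and -0.21 to -0.22 for Pfkp. Hk1 did not pass, at 4.35 and 4.91 FPKM in Con_48h and 4.70 and 5.30 FPKM with Vc.

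At 24 h the same comparison called 5 genes lower and 1 higher, against 13.6% of all genes called in either direction. Pkm was at 841 and 872 FPKM in Con_24h and at 669 and 625 FPKM with Vc (-0.41 ± 0.04, adjusted p = 4.19e-05 by limma). Pfkl, Pgk1, Ldha and Slc2a1 were lower by 0.37, 0.35, 0.33 and 0.24 on the log2 scale. Pfkp, the platelet-type subunit, rose from 5.64 and 5.56 FPKM to 7.69 and 8.20 FPKM (0.44 ± 0.06, adjusted p = 0.000297). With only these 2 groups in the fit the 5 lower calls were lost at the same values (adjusted p = 0.0518 to 0.119 by limma). The Vc_24h and Con_24h libraries of Slc2a3, Hk1 and Hk2 did not differ beyond the threshold.

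With Vc at 48 h, of the other glycolysis enzymes 5 of 13 tested fell and 2 rose, and their summed level was 1680 and 1769 FPKM in Con_48h and 1310 and 1297 FPKM in Vc_48h, with the most abundant, the enolase Eno1, at 573.1 against 752.3 FPKM (-0.39). The list's sum holds Gapdh, at 85.7 and 108.5 FPKM in Con_48h and at 49.4 and 3.56 FPKM in Vc_48h. The triose phosphate isomerase Tpi1 was at 139.4 FPKM against 205 FPKM in Con (-0.55). The enolase Eno3 was at 22.1 FPKM against 17.2 FPKM (0.34). Of 16 citrate cycle enzymes 2 rose and none fell (median -0.01), and of 8 pentose phosphate genes only Pgd, which makes NADPH, rose (63.2 against 52.0 FPKM). Among 18 genes of lactate and pyruvate handling 4 rose and 2 fell, with Ldhb, the other lactate dehydrogenase subunit, higher at 126.3 against 91.4 FPKM, and Slc16a3, a lactate exporter, lower at 58.8 against 74.8 FPKM. Of 3 gluconeogenesis genes 2 rose, Pck2 among them (5.79 against 4.22 FPKM), and neither of the 2 other glucose transporters tested changed.

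The list of hypoxia response genes was chosen for a known response to low oxygen. With Vc at 48 h, 10 of its 16 tested genes were lower and 1 was higher (median -0.29), and Ddit4, an inhibitor of mTORC1 that low oxygen induces, was at 27.97 FPKM against 58.8 FPKM (-1.05, adjusted p = 5.22e-06 by limma). Of 12 regulators of glycolysis genes 2 fell and 1 rose, with the MYC-family factor Mycn at 51.8 against 65.5 FPKM and Hif1an, an asparagine hydroxylase that acts on HIF, at 15.6 against 13.8 FPKM. The summed pluripotency markers were at 2324 and 2379 FPKM in Con_48h and at 2080 and 2236 FPKM in Vc_48h, and the fibroblast and interstitial markers at 31.7 and 33.2 FPKM against 41.9 and 41.2 FPKM, with Col1a1 the most abundant. The part of these cells in the lower glycolysis levels was not tested.

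A second pair of groups shows Vc against the same background of AM580. V580_48h and AM580_48h share no library with Vc_48h and Con_48h, though the spread was estimated over all 16. In V580_48h 7 of the 9 genes were lower than in AM580_48h and none was higher, against 10.7% of all genes called lower and 19.2% called in either direction. These 7 were all among the 8 genes lower with Vc alone. This comparison and the interactions below were added after the data were seen.

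Pgk1 was at 203.5 and 199.9 FPKM in V580_48h and at 417 and 410 FPKM in AM580_48h (-1.03 ± 0.05, adjusted p = 2.61e-09 by limma). Pfkl was at 37.4 and 38.4 FPKM against 72.7 and 74.0 FPKM (-0.93 ± 0.05). Ldha, at 271 FPKM in both V580_48h libraries against 446.0 and 446.5 FPKM, differed by -0.72 ± 0.04, and Pkm by -0.58 ± 0.04. Of the hypoxia response genes 11 of 16 were lower and none was higher, with Ddit4 at 33.8 against 83.4 FPKM (-1.28), while of 16 citrate cycle enzymes 2 were higher and none lower. At 24 h, V580 against AM580 gave 5 genes lower and Pfkp higher (14.8% of all genes called).

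With AM580 alone the transporters changed most. Slc2a3 was at 51.4 and 49.7 FPKM in Con_48h and at 303 and 281.0 FPKM in AM580_48h, a log2 rise of 2.51 ± 0.04 (adjusted p = 4.58e-15 by limma). Slc2a1 was at 105.7 and 106.5 FPKM against 324.1 FPKM in both AM580_48h libraries, a rise of 1.60 ± 0.04 (adjusted p = 1.2e-13). These were the only members changed at least 2-fold, which 3.23% of all genes were. Counting smaller changes, 5 of the 9 genes were higher and 2 lower, where 57.0% of all genes were called.

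The enzymes changed by less than 0.4 on the log2 scale. Pfkp rose from 1.71 and 1.70 FPKM to 2.46 and 2.62 FPKM (0.39 ± 0.06), and Hk1 from 4.35 and 4.91 FPKM to 5.96 and 5.64 FPKM (0.28, with 0.20 and adjusted p = 0.0599 without Con_48h replicate 1). Pfkl rose by 0.16, a call lost when any 1 library was left out (0.15 to 0.17). Ldha fell by 0.33 ± 0.04 (adjusted p = 1.65e-05 by limma) and Pkm by 0.22, while Pgk1 and Hk2 did not pass. At 24 h, 3 genes were higher and 4 lower with AM580 (14.8% of all genes called), and the transporters were again highest, with Slc2a1 at 262.9 and 268 FPKM against 176.7 and 186.5 FPKM (0.55 ± 0.04) and Slc2a3 at 131.8 and 131.6 FPKM against 87.9 and 85.9 FPKM (0.60 ± 0.04). Of these 7 calls, Hk2 (0.24) was lost without Con_24h replicate 2 or either AM580_24h library (0.17 to 0.25), Pfkp (-0.25) without replicate 1 of either group (-0.18 and -0.24), and Pkm (-0.20) without replicate 2 of either group (-0.17 and -0.19).

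Around these genes, Mycn was at 7.34 FPKM with AM580 at 48 h against 65.5 FPKM in Con (log2 change -3.00, adjusted p = 2.31e-14 by limma), and Txnip, an arrestin that draws glucose transporters from the cell surface, was at 70.5 against 31.7 FPKM (1.13). Of the 16 hypoxia response genes tested 9 rose and 2 fell, with P4ha1, a collagen prolyl hydroxylase, at 21.6 against 9.86 FPKM and Egln3, a HIF prolyl hydroxylase, at 11.5 against 25.9 FPKM. Of 16 citrate cycle enzymes 8 fell and 1 rose, and of 8 pentose phosphate genes 4 fell, led by G6pdx, the entry enzyme, at 28.9 against 43.9 FPKM. Of the other glycolysis enzymes 2 rose and 2 fell of 13. The pluripotency markers summed to 2848 and 3022 FPKM in AM580_48h, above the 2324 and 2379 FPKM of Con_48h.

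In V580 at 48 h both transporters were above Con, Pgk1, Ldha, Pkm, Pfkl and Hk2 were below it, and Hk1 and Pfkp were slightly above. At 48 h Slc2a3 was at 138.8 and 144.6 FPKM (1.47 ± 0.04 over Con) and Slc2a1 at 122.9 and 129.3 FPKM (0.25 ± 0.04). Pgk1 was lower than Con by 1.11, Ldha by 1.04, Pkm by 0.80 and Pfkl by 0.77 on the log2 scale, with adjusted p between 5.08e-11 and 1.82e-08 (limma) and no overlap of libraries. All 9 genes passed, 4 higher and 5 lower, where 57.1% of all genes passed. Of these calls Hk1 (0.17), Pfkp (0.18) and Hk2 (-0.16) were the smallest. Leaving out a library could end each of them, at 0.10 to 0.20 for Hk1, 0.17 to 0.19 for Pfkp and -0.14 to -0.18 for Hk2. The Hk1 call was also lost with no filter (0.17), median centring (0.15) or a replicate block (0.17). The Hk2 call was also lost in the count model on recovered fragments (-0.13). The Vc, AM580 and V580 comparisons share the Con libraries of their time point.

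Slc16a3, the lactate exporter, was the called gene of its list that fell most in V580_48h, at 21.5 against 74.8 FPKM (-1.75, adjusted p = 9.35e-13 by limma). Other glycolysis enzymes fell in 8 of 13 tested and rose in 2, with Tpi1 at 122.6 against 205 FPKM. Mycn was at 3.54 FPKM against 65.5 FPKM (-3.88), and Egln3 at 6.48 against 25.9 FPKM (-1.85). Of 16 hypoxia response genes 5 rose and 6 fell, Adm, which encodes the vasodilator adrenomedullin, being the largest rise (5.57 against 2.51 FPKM). At 24 h V580 gave 3 genes higher and 4 lower (29.0% of all genes called), with Pkm, Ldha, Pgk1 and Pfkl lower by 0.61, 0.69, 0.57 and 0.43 on the log2 scale, and Slc2a3, Hk2 and Slc2a1 higher by 0.55, 0.35 and 0.29.

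Whether Vc acted differently in the presence of AM580 was tested as an interaction. At 48 h it passed for 3 of the 9 genes, Slc2a1, Slc2a3 and Ldha, each negative, where 3.61% of all genes passed. For Pfkl it was 0.03 ± 0.08 and for Pgk1 -0.09 ± 0.06 (SE), and neither passed. With a replicate block the Ldha interaction at 48 h did not pass (-0.25, adjusted p = 0.0523 by limma). At 24 h no member passed by limma (0.0376% of all genes called), the lowest unadjusted p among the 9 being 0.397. Between 24 and 48 h the effect of Vc became more negative for 5 of the 9 genes (2.9% of all genes called), the effect of AM580 changed for 6 (35.0%), and that of V580 for 6 (33.9%).

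**Figure D2:**
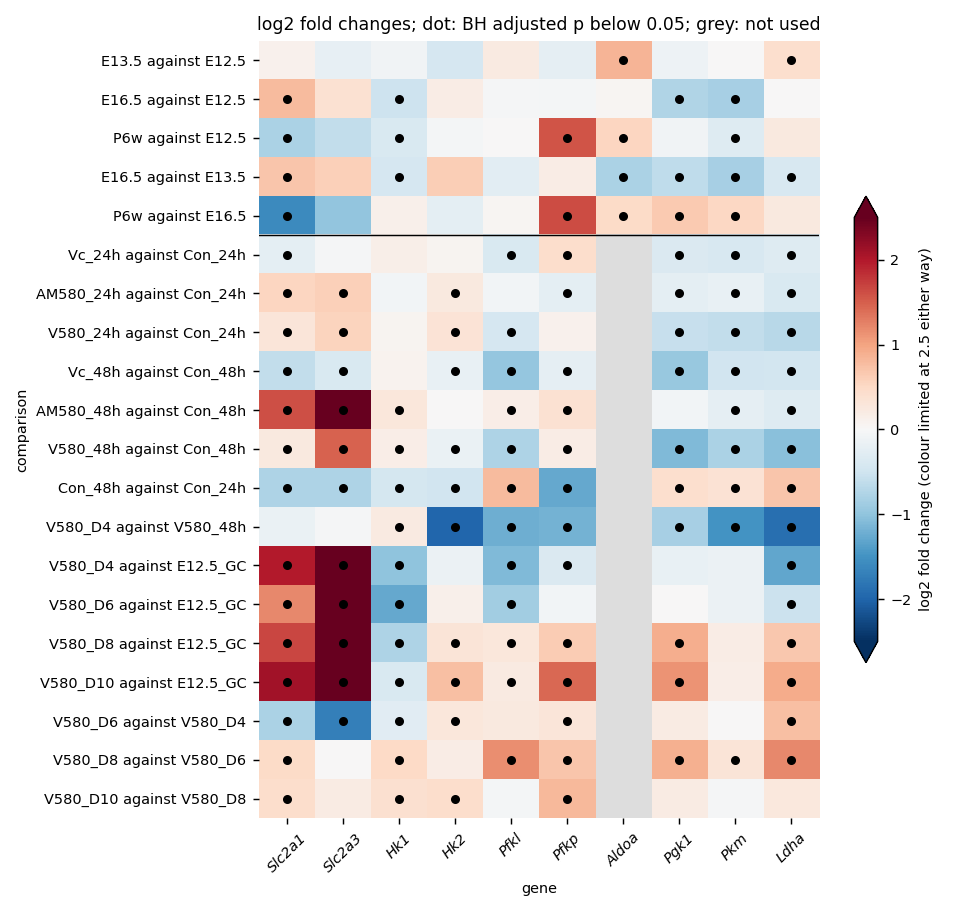
Log2 fold change of each gene (columns) in each comparison (rows), with colour limited at 2.5 in either direction and a mark on calls at adjusted p below 0.05. The row of Vc_48h against Con_48h is blue from Slc2a1 to Ldha except Hk1 and Aldoa. The row of AM580_48h against Con_48h is red at the transporters, and Aldoa is grey where its FPKM values were not used.

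Every one of the 9 genes differed between the Con_24h and Con_48h libraries. From Con_24h to Con_48h 4 genes rose and 5 fell, where 66.0% of all genes were called. Ldha rose from 338.5 and 353 FPKM to 555.2 and 563 FPKM (0.69 ± 0.04, adjusted p = 2.24e-09 by limma), and Pfkl, Pgk1 and Pkm rose by 0.80, 0.42 and 0.36. Pfkp fell from 5.64 and 5.56 FPKM to 1.71 and 1.70 FPKM (-1.29 ± 0.06), Slc2a1 and Slc2a3 each fell by 0.77, Hk2 by 0.49 and Hk1 by 0.44. Fibroblast and interstitial markers summed to 134.2 and 124.1 FPKM in Con_24h and to 31.7 and 33.2 FPKM in Con_48h, and the pluripotency markers fell from 3826 and 4141 FPKM to 2324 and 2379 FPKM. Whether feeder cells or the exit from pluripotency had a part in these changes was not tested.

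The V580 cultures were next followed to day 10 and set against E12.5_GC. The E12.5_GC libraries stood apart from one another: a chi-square per gene of recovered fragments was 55.5 to 110.0 between them, against 1.78 to 11.1 between replicates of every other group in that table, and erythroid markers summed to 4440, 1695 and 1041 FPKM with Hba-a1 the most abundant. The 10 gonadal somatic markers summed to 937.6, 1111 and 1007 FPKM in E12.5_GC and to 123.4, 131.4 and 125.4 FPKM in V580_D6, where Kctd14, the most abundant of them in E12.5_GC at 310.4 FPKM, was at 0.43 FPKM. V580_D6 thus held the summed level of these markers only in small part, and the groups are called by their labels.

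Slc2a3 was the gene that set V580 cultures apart from E12.5_GC most. It was at 3.65, 2.68 and 2.81 FPKM in E12.5_GC, at 145.0, 136.6 and 135.0 FPKM in V580_D4, and at 44.2, 40.7 and 40.2 FPKM in V580_D6. V580_D8 libraries had 45.6, 40.3 and 39.99 FPKM and V580_D10 libraries 50.2, 45.8 and 49.5 FPKM. The log2 difference from E12.5_GC was 5.12 on day 4 and 3.41, 3.42 and 3.62 on days 6, 8 and 10, each with an SE of 0.09 and every culture library above every E12.5_GC library. Slc2a1 was at 31.4, 27.7 and 24.6 FPKM in E12.5_GC, at 69.5, 61.6 and 63.5 FPKM in V580_D6 and at 133.5, 111.7 and 124.4 FPKM in V580_D10, with log2 differences of 1.98, 1.19, 1.67 and 2.11 on days 4 to 10.

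**Figure D3:**
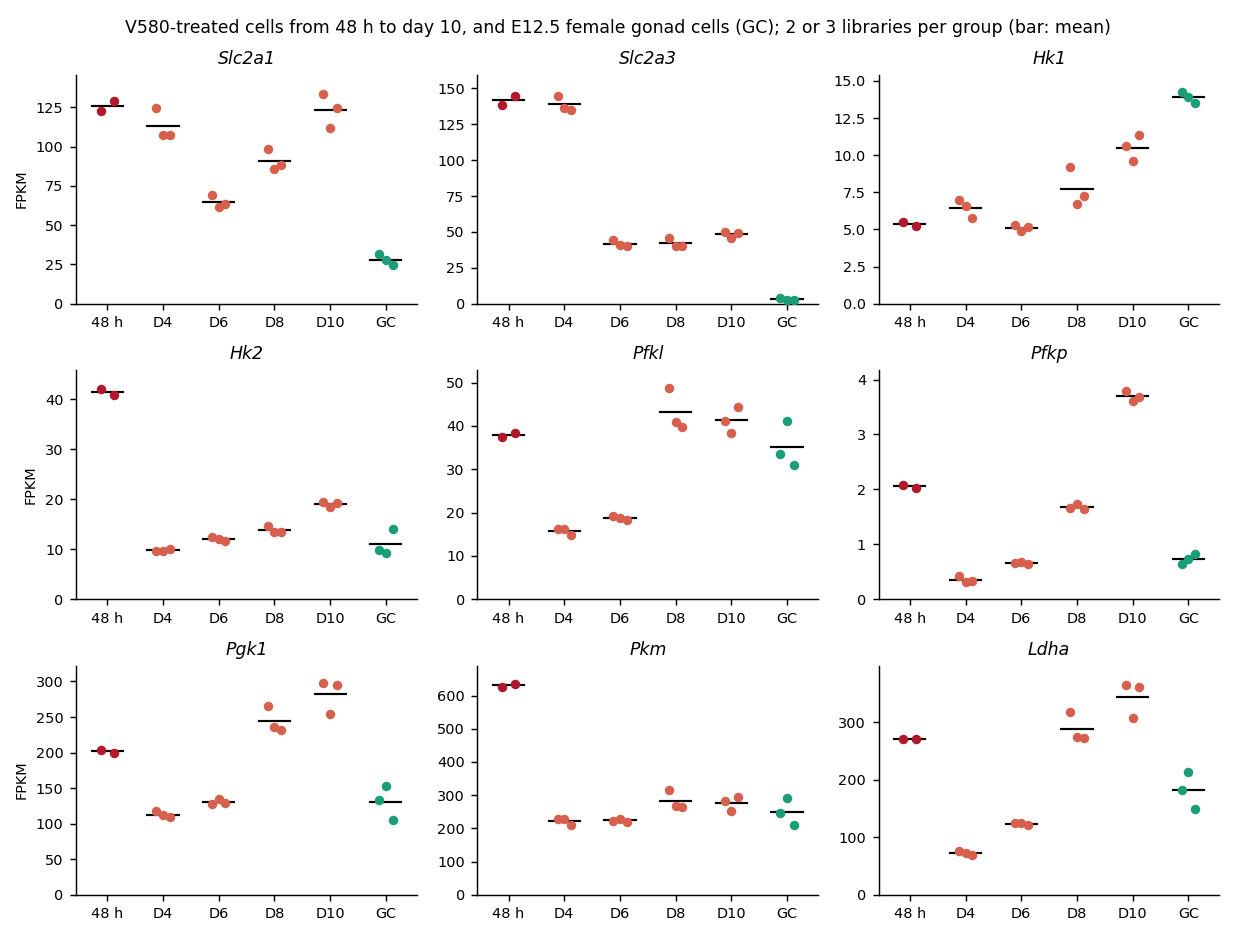
FPKM of the 9 usable genes in V580 cultures at 48 h and on days 4, 6, 8 and 10, and in E12.5_GC. Points are libraries, 2 at 48 h and 3 in each other group, with a bar at the mean, and each panel has its own axis from 0. Ldha, Pgk1 and Pfkl are lowest on days 4 and 6 among the culture days, Slc2a3 drops from day 4 to day 6, and E12.5_GC is lowest for both transporters and highest for Hk1.

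Hk1, the hexokinase of most adult tissues, ran the other way. It was at 14.2, 14.0 and 13.53 FPKM in E12.5_GC and at 5.27, 4.90 and 5.19 FPKM in V580_D6 (-1.28 ± 0.10, adjusted p = 1.69e-08 by limma), and was lower on each of the other days. The transcripts of Hk2, per length, made up 88.6 to 92.6% of Hk1 and Hk2 together at 24 and 48 h by group mean, 60.3 to 70.1% on days 4 to 10 and 43.9% ± 6.1 (SD, n = 3) in E12.5_GC. E12.5_GC thus had the lowest share of Hk2, the inducible hexokinase, in the FPKM table.

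Ldha and Pgk1 were higher in every library of days 8 and 10 than in any of days 4 and 6. Ldha was at 182.2, 213.2 and 148.6 FPKM in E12.5_GC, at 76.2, 71.8 and 69.7 FPKM in V580_D4 and at 125.1, 124.0 and 121.4 FPKM in V580_D6. It then reached 317, 273.5 and 272 FPKM in V580_D8 and 365, 306.5 and 361 FPKM in V580_D10. Against E12.5_GC the log2 difference went from -1.30 and -0.54 on days 4 and 6 to 0.67 and 0.93 on days 8 and 10. Pgk1 was at 133.8, 152.8 and 105.4 FPKM in E12.5_GC and at 297.4, 253.7 and 295.4 FPKM in V580_D10 (1.12 ± 0.11), while its levels on days 4 and 6 did not pass. Pkm differed from E12.5_GC on no day, with values of -0.14 and -0.14 on days 4 and 6 and 0.19 and 0.17 on days 8 and 10. Without E12.5_GC replicate 3, Pgk1 passed as lower on day 4 (-0.34) and Pkm on days 4 and 6 (-0.26 and -0.25), and without replicate 2 Pkm passed as higher on days 8 and 10 (0.31 and 0.28).

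By count, 2 genes were higher and 4 lower than E12.5_GC in V580_D4 (71.6% of the 11512 genes tested were called), 2 and 3 in V580_D6 (67.0%), 7 and 1 in V580_D8 (63.2%) and 7 and 1 in V580_D10 (69.5%). The 4 comparisons share the E12.5_GC libraries. On day 8, Hk2 lost its call without E12.5_GC replicate 1 or 2 or V580_D8 replicate 1 (0.22 to 0.28), and Pfkl lost it without E12.5_GC replicate 1 or 3 or V580_D8 replicate 1 (0.20 to 0.26); both lost it with only the 2 groups in the fit (0.32 and 0.29). On day 10 Pfkl lost it without E12.5_GC replicate 1 or 3 or V580_D10 replicate 1 or 3 (0.15 to 0.23). That call was also lost with only the 2 groups (0.23), no filter (0.23), median centring (0.19), a length term (0.16) or a replicate block (0.23). On day 8 a length term ended the Pfkl call too (0.22). Pfkp, at 0.65, 0.73 and 0.83 FPKM in E12.5_GC and 3.80, 3.61 and 3.69 FPKM in V580_D10 (1.44 ± 0.06, adjusted p = 8.59e-12 by limma), kept its call without any 1 library.

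Among the steps between days 4, 6, 8 and 10, that from day 6 to day 8 called the most members. Of the 9 genes 7 rose and none fell, where 20.3% of all genes rose and 41.1% were called in either direction, and the median difference was 0.50 over the 9 genes and -0.02 over all genes. Ldha rose by 1.21 ± 0.12 (adjusted p = 1.48e-06 by limma) and Pfkl by 1.16 ± 0.10, from 19.3, 18.7 and 18.2 FPKM to 48.7, 40.8 and 39.8 FPKM. Pgk1 rose by 0.90, Pfkp by 0.69, Hk1 by 0.50, Slc2a1 by 0.48 and Pkm by 0.33, the last losing its call without any 1 of V580_D6 replicates 1 to 3 or V580_D8 replicate 1 (0.24 to 0.34). Slc2a3 (0.01) and Hk2 (0.19) did not pass. From day 8 to day 10 a further 4 rose and none fell (34.5% of all genes called), led by Pfkp (0.81), and from day 4 to day 6 Slc2a3 and Slc2a1 fell by 1.71 and 0.79 while Ldha rose by 0.76, in all 3 higher and 3 lower (44.9%). Of these 6 calls Hk2 (0.27) was lost without any 1 of the 6 libraries (0.25 to 0.30). Hk1 (-0.28) was lost without any 1 except V580_D4 replicate 3 (-0.22 to -0.29). Pfkp (0.295) was lost with a length term (0.15, adjusted p = 0.203 by limma), as was Hk2 (0.21).

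Over the same step from day 6 to day 8, 13 of 17 hypoxia response genes rose and none fell (median 0.54), with Egln3 at 11.6 against 2.62 FPKM (1.80, adjusted p = 1.9e-09 by limma). Pdk1, the kinase that switches off pyruvate dehydrogenase, was at 15.5 against 6.31 FPKM, and Aldoc, another aldolase, at 8.65 against 3.83 FPKM. Of 16 citrate cycle enzymes 4 fell and 1 rose, with citrate synthase Cs at 35.6 against 46.7 FPKM. Of the other glycolysis enzymes 7 rose and 3 fell of 15, Eno3 falling most (6.34 against 19.2 FPKM), and of 8 pentose phosphate genes 1 rose and 1 fell. Txnip was at 85.1 against 23.9 FPKM.

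Markers of other cell types moved in the same interval. All 7 fibroblast and interstitial markers rose from day 6 to day 8, their sum from 178.1 to 186.9 FPKM on day 6 to 529.5 to 670.4 FPKM on day 8 and 1374 to 1692 FPKM on day 10, with Col1a1 the most abundant, against 239.8 to 260.4 FPKM in E12.5_GC. Of 10 gonadal somatic markers 4 rose and none fell from day 6 to day 8, to a sum of 194.7 to 203.1 FPKM. The part of either cell type in the glycolysis levels was not tested.

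In V580_D10 against E12.5_GC, 12 of 17 hypoxia response genes were higher and 2 lower (median 0.86), Egln3 at 22.4 against 2.96 FPKM. Ldhb, the subunit of lactate dehydrogenase that favours pyruvate, was at 89.6 FPKM against 444.3 FPKM (-2.27, adjusted p = 4.34e-10 by limma), while Slc16a3 was at 61.6 against 14.7 FPKM. The isomerase Gpi1, which follows hexokinase, was at 120.6 against 41.9 FPKM, and the transketolase Tkt of the pentose phosphate pathway at 59.4 against 182.2 FPKM. Of the other glycolysis enzymes 8 were higher and 5 lower of 15.

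Between 48 h and day 4 of V580, 6 of the 9 genes fell and 1 rose, where 34.7% of all genes fell and 74.1% were called (limma over all 31 libraries). Hk2 fell from 42.1 and 40.9 FPKM to 9.56, 9.66 and 10.1 FPKM (-1.98 ± 0.10) and Ldha from 271 FPKM in both libraries to 76.2, 71.8 and 69.7 FPKM (-1.89 ± 0.10). Pkm, Pfkl, Pfkp and Pgk1 fell by 1.499, 1.23, 1.17 and 0.83 on the log2 scale. Slc2a3, at 138.8 and 144.6 FPKM and then 145.0, 136.6 and 135.0 FPKM, did not pass, nor did Slc2a1 (-0.16). Both passed as lower with median centring (-0.18 and -0.31) and with a length term (-0.17 and -0.19), and Slc2a1 also without V580_D4 replicate 1 (-0.23), with only these groups in the fit (-0.16) and in the count model on recovered fragments (-0.26). Hk1 rose by 0.22, a call lost without V580_48h replicate 1 or 2 or V580_D4 replicate 1 or 2 (0.17 to 0.26), with median centring (0.07), with a length term (0.06) and in the count model (0.16). Over this step the pluripotency markers went from 2425 and 2327 FPKM to 239.9, 213.4 and 221.9 FPKM. Fibroblast and interstitial markers went from 40.9 and 39.8 FPKM to 85.7, 83.0 and 74.3 FPKM. Gonadal somatic markers went from 20.7 and 20.9 FPKM to 39.4, 38.2 and 37.3 FPKM. The part of these cells in the changed levels was not tested. The labels put the 48 h and day 4 libraries in separate sets of 2 and 3 replicates. A difference between sets and one between times cannot be told apart.

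Which of these genes change as GSCs mature was read from counts at the 4 stages. The 2 E16.5 libraries stood apart from each other, with a chi-square per gene of 37.9 against 6.02 to 6.93 between replicates of the other stages. The labels carry L1 for E16.5 replicate 2 and both P6w libraries and L5 for the others, read here as sequencing lanes 1 and 5. Stage results are therefore given with both E16.5 libraries and within a lane, except P6w against E12.5, which lie in separate lanes and are given with a lane term that rests on the 2 E16.5 libraries.

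**Figure D4:**
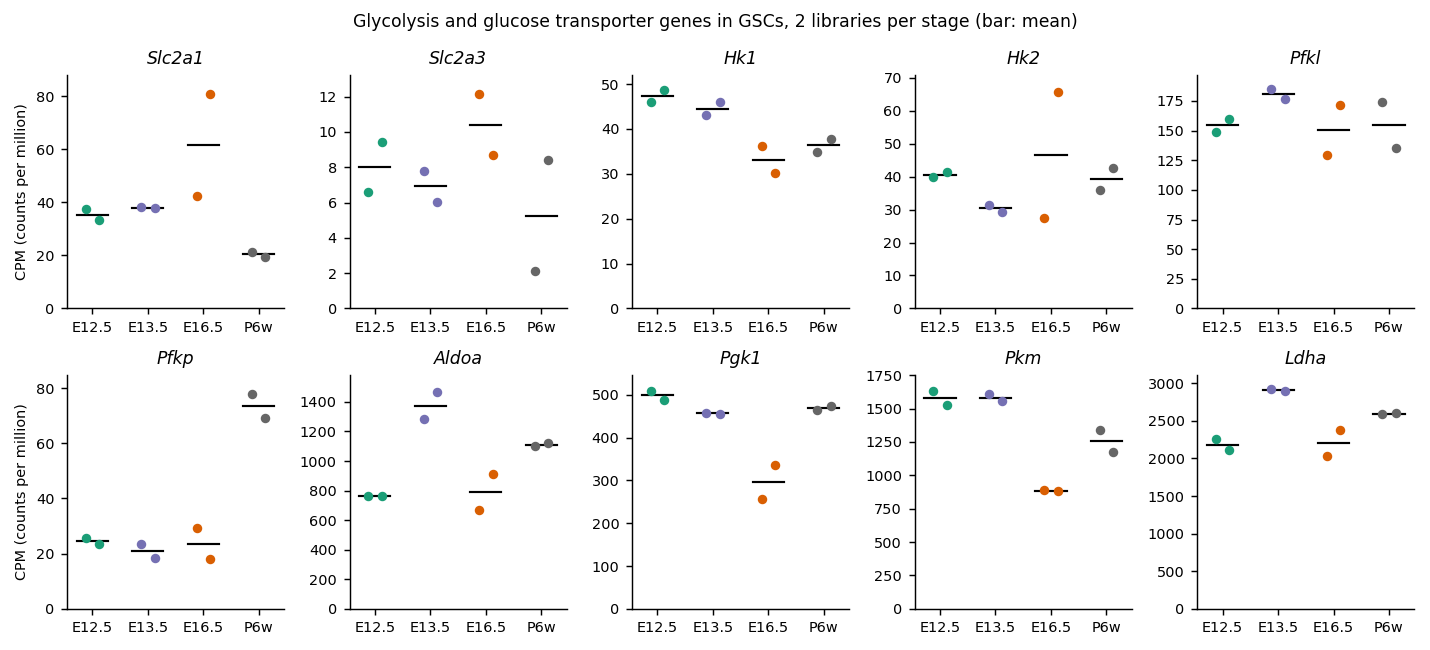
CPM (counts scaled to TMM totals, which adjust library totals for composition) of the 10 genes in GSCs of the 4 stages, 2 libraries per stage as points with a bar at the mean, each panel with its own axis from 0. Pfkp is highest in the P6w libraries, Pkm and Pgk1 are lowest at E16.5, and the E16.5 libraries of Slc2a1 and Hk2 lie far apart.

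Per length, Ldha led at all 4 stages, with means from 659 CPM per kb at E12.5 to 880 CPM per kb at E13.5, and Slc2a3 was lowest, at 0.73 to 1.44 CPM per kb. The order of Ldha and Pkm differed in E12.5_GC, the other set of that age. There Pkm was at 246.2, 290.5 and 209.5 FPKM and Ldha at 182.2, 213.2 and 148.6 FPKM. At E12.5 the order of levels was Ldha, Pkm (315.9), Aldoa (262), Pgk1 (222), Pfkl (23.1), Slc2a1 (10.1), Hk2 (6.798), Hk1 (5.55), Pfkp (1.84) and Slc2a3 (1.11 CPM per kb). The 10 genes summed to 5334 ± 180 CPM at E12.5 and to 6645 ± 70.1 CPM a day later, then to 4505 ± 533 CPM at E16.5 and 5765 ± 113 CPM in P6w (SD, n = 2). The 3 comparisons with E12.5 share its libraries.

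From E12.5 to E13.5, 2 of the 10 genes rose and none fell, while 45.9% of the 16398 genes tested were called (edgeR quasi-likelihood test). Aldoa rose from 761.5 and 765 CPM to 1281 and 1468 CPM (0.85 ± 0.14, adjusted p = 0.000202 by edgeR), and Ldha from 2255 and 2110 CPM to 2921 and 2902 CPM (0.42 ± 0.12, adjusted p = 0.00982). The Ldha call was lost without E12.5 replicate 2 or either E13.5 library (0.36 to 0.44). Fold changes of this comparison followed gene length across all genes (Spearman's rho -0.49 across genes, which are not independent replicates), and with a length term Aldoa kept its call (0.61) while Ldha did not (0.28, adjusted p = 0.0671), and Pfkl (0.55), Hk1 (0.37) and Pgk1 (-0.54) passed. Hk2 (-0.42) passed as lower with no filter (-0.44), with a lane term (-0.42) and with only the 2 groups in the fit (-0.46). Erythroid markers summed to 15740 and 14340 CPM at E12.5 and to 35110 and 32470 CPM at E13.5, led by Hbb-y, and liver and yolk sac markers to 4.08 and 3.06 CPM and to 163.4 and 168.2 CPM. Their part in the 2 rises was not tested. Of 16 citrate cycle enzymes 8 rose and none fell, with the succinate dehydrogenase subunit Sdhb at 459.9 against 250 CPM, and of the other glycolysis enzymes 7 rose and 1 fell of 21.

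At E16.5 the ATP-yielding enzymes were lower than at E12.5. Pkm was at 1632 and 1527 CPM at E12.5 and at 889.5 and 880.2 CPM at E16.5 (-0.84 ± 0.12, adjusted p = 5.27e-05 by edgeR), and Pgk1 at 508.4 and 489 CPM against 255.6 and 337 CPM (-0.75 ± 0.13). Both kept their calls within lane 5 (-0.83 and -0.97). In all, 1 gene was higher and 3 lower (37.6% of all genes called). Hk1 was lower by 0.51, and this call was lost without either E12.5 library (-0.47 and -0.56). Its value within lane 5 was -0.39. Slc2a1 was at 37.4 and 33.5 CPM at E12.5 and at 42.6 and 81.0 CPM at E16.5 (0.80 ± 0.22), a call that E16.5 replicate 2 carried, since without it the value was 0.26 (adjusted p = 0.177 by edgeR); it was also lost without E12.5 replicate 2 (0.72). Hk2, at 39.8 and 41.4 CPM against 27.4 and 65.7 CPM, passed as lower without E16.5 replicate 2 (-0.57) and as higher without replicate 1 (0.69), so that its direction rested on the library.

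Fibroblast and interstitial markers summed to 3196 and 2835 CPM at E16.5 against 873.8 and 927.3 CPM at E12.5, with Col1a2 the most abundant, gonadal somatic markers to 2463 and 2850 CPM against 3860 and 3859 CPM, and germ cell markers to 104.3 and 137.0 CPM against 20.4 and 18.3 CPM. Their part in the lower Pkm and Pgk1 was not tested. Of the other glycolysis enzymes 4 rose and 7 fell of 21, with Eno3 at 25.4 against 54.4 CPM. Ldhb was at 986.6 against 2838 CPM (-1.52, adjusted p = 1.53e-07 by edgeR), and Mycn at 14.4 against 69.4 CPM (-2.27). Against E13.5, with which this comparison shares its E16.5 libraries, 1 gene was higher and 5 lower (54.1% called), with log2 differences of -0.80 for Aldoa, -0.84 for Pkm, -0.63 for Pgk1, -0.42 for Hk1 and -0.40 for Ldha. The Slc2a1, Hk1 and Ldha calls were lost without either E13.5 library (0.67 and 0.69, -0.39 and -0.47, and -0.41 and -0.42). Within lane 5 Aldoa, Pkm, Pgk1 and Ldha kept their calls (-1.03, -0.82, -0.83 and -0.51). Slc2a1 and Hk1 lost theirs (0.17 and -0.29), and Pfkl (-0.47) and Pfkp (0.49) passed. Fold changes from E13.5 to E16.5 followed gene length too (Spearman's rho 0.335 across genes). With a length term and all libraries Pfkl passed as lower (-0.64), and so did Pfkp (-0.51). The direction of Pfkp thus rested on the processing.

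P6w cells differed most in Pfkp. It was at 25.6 and 23.6 CPM at E12.5, at 29.3 and 17.9 CPM at E16.5 and at 77.8 and 69.3 CPM in P6w, a log2 rise of 1.58 ± 0.20 over E12.5 (adjusted p = 1.08e-05 by edgeR) and of 1.63 ± 0.20 over E16.5 (7.33e-06). It made up 19.2% ± 1.5 of Pfkl and Pfkp per length in P6w and 5.43 to 7.53% by mean at the fetal stages. Within lane 1 the rise over E16.5 was 2.04. Because 748 of its 13401 exon bases (5.6%) overlap Pitrm1 on the other strand, part of its count could be shared with that gene. Of the 5001 exon bases of Pkm, 767 (15.3%) overlap Gm49759, an unconfirmed transcript on the same strand, so the Pkm count is uncertain in that part.

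Slc2a1 was lowest in P6w, at 21.3 and 19.5 CPM, with a log2 difference of -0.80 ± 0.23 from E12.5 (adjusted p = 0.00902 by edgeR, lost without E12.5 replicate 1 or P6w replicate 2, at -0.72 and -0.74) and of -1.59 ± 0.23 from E16.5 (-1.99 within lane 1). Slc2a3 was at 2.12 and 8.41 CPM in P6w and 6.62 and 9.44 CPM at E12.5. It did not pass with all libraries and the low-count filter (-0.61), but did with no filter (-0.63) or without P6w replicate 2 (-1.92). Nor did Slc2a3 pass against E16.5 (-0.99). There it passed as lower with no filter (-1.0), a replicate block (-1.07), or without E16.5 replicate 2 (-1.21) or P6w replicate 2 (-2.29). Against E12.5, 2 genes were higher and 3 lower (52.9% of all genes called), the others being Aldoa (0.54), Pkm (-0.33) and Hk1 (-0.38). With a lane term the rise of Pfkp over E12.5 was 2.29 and the fall of Slc2a1 -1.72, the Aldoa, Pkm and Hk1 calls were lost (0.10, -0.31 and -0.12), while Hk2 (-1.31) and Pgk1 (-0.49) passed as lower, and the Pkm and Hk1 calls were also lost on leaving out single libraries (for Pkm E12.5 replicate 1 or 2 or P6w replicate 2, -0.24 to -0.38, and for Hk1 any of the 4, -0.33 to -0.45). Against E16.5, 3 further genes were higher than E16.5 beside Pfkp, which were Pgk1 (0.66), Pkm (0.51) and Aldoa (0.49), in all 4 higher and 1 lower (56.1%). Within lane 1 all 5 kept their calls, Aldoa at 0.28 (adjusted p = 0.0157 by edgeR), and Hk2 passed as lower (-0.75), whereas against E16.5 replicate 1 alone it passed as higher (0.51).

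In P6w 10 of 16 citrate cycle enzymes were higher than at E12.5 and none lower, with the malate dehydrogenase Mdh2 at 1059 against 524 CPM, and all 4 gluconeogenesis genes tested were higher, with the fructose bisphosphatase Fbp1 at 7.71 against 0.56 CPM. Foxo1, a factor of the insulin pathway, was at 760.9 against 32.4 CPM (4.55, adjusted p = 1.39e-11 by edgeR). Of 17 hypoxia response genes 4 were higher and 8 lower, Adm at 9.41 against 67.0 CPM. Erythroid markers summed to 266.8 and 296.4 CPM, macrophage markers to 243.9 and 252.2 CPM against 66.3 and 70.2 CPM at E12.5, and oocyte markers to 139.5 and 56.3 CPM against 4.17 and 3.71 CPM. Liver and yolk sac markers summed to 524.2 and 544.1 CPM in P6w, of which Apoa4 was 406.1 CPM, with Alb and Ttr at 0. Gonadal somatic markers summed to 1775 and 1688 CPM in P6w against 3860 and 3859 CPM at E12.5. Endothelial markers were at 31.1 and 38.5 CPM against 230.8 and 233.4 CPM. Fibroblast and interstitial markers were at 429.3 and 467.3 CPM against 873.8 and 927.3 CPM. The part of these cells in the P6w values was not tested.

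The row named Aldoa in the FPKM table gave whole fragment numbers in 31 of 31 libraries only at the length of a second gene of that symbol, 799 exon bases at chr7:126800790-126809108 on the minus strand of mm10, with 4 to 50 fragments per library. At the 2911 exon bases of the main Aldoa gene (chr7:126795234-126800751) it did so in 5 of 31. No Aldoa value is therefore given for the cultures in bulk. Gapdh, from the list of other glycolysis enzymes, ranged from 0.94 to 108.5 FPKM. It differed widely between replicates, at 11.2 and 80.8 FPKM in AM580_24h. No call is named for it, and elsewhere its values are given only as part of the list's sum with Vc at 48 h.

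Within the V580_D6 droplet library the 10 genes were compared between clusters of cells. It held 15412 barcodes, of which 15315 had 200 genes or more and no more than 40% of counts from mitochondria, the limits given for the study, with a median of 9281 UMIs and 3074 genes per cell. All barcodes carry 1 suffix and were treated as 1 sample, so no test was made, and the intervals below are exact Poisson 95% intervals for counting error only. Doublets were not removed. Cells were clustered without the genes of the metabolic lists, which gave 11 clusters, and cluster names rest on leading genes.

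Summed over all cells, Aldoa led with 880.3 CPM (UMIs scaled by the total of the cells summed), followed by Ldha (700.8), Pkm (625.7), Pgk1 (498.7), Slc2a3 (162.5), Slc2a1 (149.9), Pfkl (81.7), Hk2 (79.2), Hk1 (15.2) and Pfkp (14.8). So Aldoa, which could not be read in the FPKM table of the cultures, was the most abundant of the 10 by tags from the 3′ end, which are not divided by length.

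**Figure D5:**
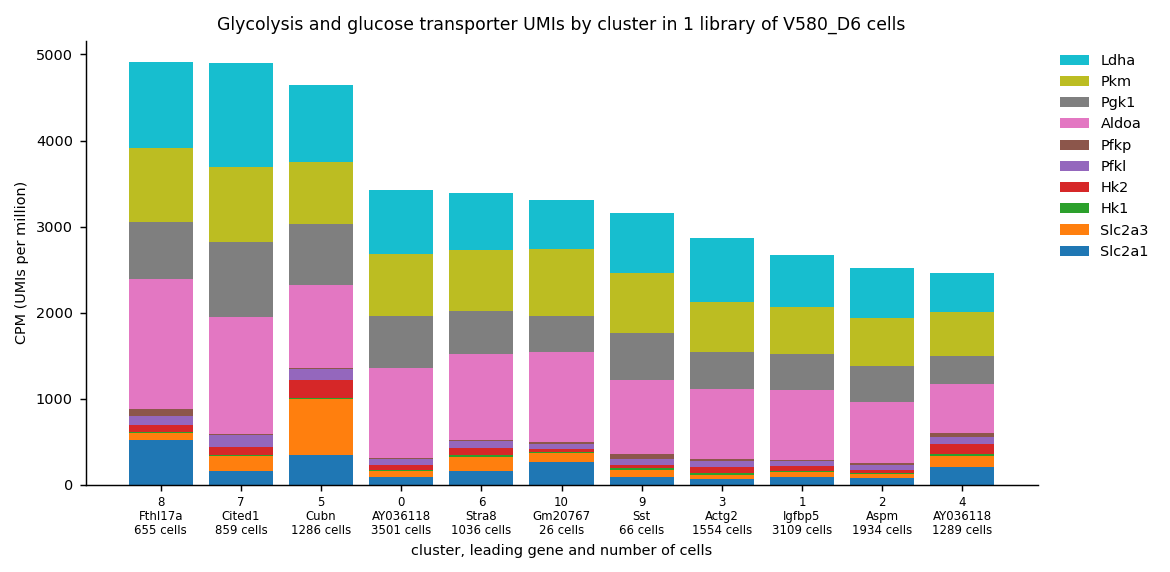
CPM (UMIs scaled by the cluster's total) of the 10 genes as stacked bars, summed over the cells of each cluster of the V580_D6 library. Clusters are in order of falling sum, and no intervals are drawn. The Slc2a3 segment is largest in cluster 5 and the Slc2a1 segment in cluster 8.

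The sum of the 10 genes ranged from 2455 to 4914 CPM between clusters. It was highest in cluster 8, led by Fthl17a (655 cells, interval 4860 to 4968), in cluster 7, led by Cited1 (859 cells, 4906 CPM, 4828 to 4984), and in cluster 5, led by Cubn, Srgn and Flt1 (1286 cells, 4651 CPM, 4624 to 4678), which was extraembryonic endoderm-like by its markers. Mesothelial-like cells led by Igfbp5 and Upk3b (cluster 1, 3109 cells) had 2674 CPM, interstitial-like cells led by Actg2 and Col6a2 (cluster 3, 1554 cells) 2863 CPM, and cells led by the mitotic genes Aspm and Mki67 (cluster 2, 1934 cells) 2517 CPM. Cells led by Stra8, Wfdc2 and Cldn3 (cluster 6, 1036 cells) had 3387 CPM. The largest cluster, led by AY036118 (cluster 0, 3501 cells, median 1461 UMIs), had 3431 CPM. Clusters 8 and 7 had medians of 3082 and 2391 UMIs per cell, against 9281 over all cells.

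Slc2a3 was at 653.3 CPM in cluster 5 (interval 643.2 to 663.6) and at 43.8 to 174.4 in the others. Of its 26468 UMIs in all cells, 15802 came from this cluster, which held 8.40% of the cells and 14.9% of all UMIs. Slc2a1 was at 518.2 in cluster 8 (500.9 to 536) and 342.2 in cluster 5 (334.9 to 349.7), and at 87.5 and 73.0 in the mesothelial-like and interstitial-like clusters. Hk2 was highest in cluster 5 too, at 205 CPM (199.3 to 210.8) against 50.9 in the mesothelial-like cluster. Ldha varied less, from 442.4 in cluster 4, whose cells had a median of 15.3% mitochondrial counts, to 1219 in cluster 7 (1181 to 1259).

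Across the 13 groups of the FPKM table, the standardized mean of the 9 genes was followed most closely by Map2k1, a kinase of the MAPK route (Pearson's r 0.97), Rrbp1 (0.92), Ppme1 (0.92), Fam114a2 (0.91) and Arhgef3 (0.90), out of 8913 genes. Among the members themselves 29 of 36 pairs had a positive r, with a median of 0.48. The closest pair was Pgk1 and Ldha (0.91), Slc2a1 and Slc2a3 followed each other at 0.90, and Slc2a3 and Hk1 ran opposite at -0.61. These correlations are over 13 group means that share cells, medium and library preparation in part, and are given as descriptions.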

How the data were processed

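Members and gene lists were chosen with earlier results of these data known. The authors mapped paired reads to mm10 with HISAT2 and deposited raw counts per gene, made with featureCounts, for the GSC stages. They deposited FPKM values for the cultures and E12.5_GC, and the submitters' processing notes name RSEM, featureCounts, Trim Galore, FastQC and SAMtools, without versions or the tool that gave FPKM. The deposited single-cell counts are UMIs from Cell Ranger.

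Stages were tested with the edgeR 4.0.16 quasi-likelihood test on TMM-scaled counts of the 8 libraries (R 4.3.3). FPKM was tested with limma 3.58.1 (trend) on log2(FPKM + 1). Genes needed at least 1 FPKM in 2 of 16 (treatments), 3 of 15 or 2 of 31 libraries. Calls were made at a Benjamini-Hochberg adjusted p below 0.05. CPM is the count scaled to TMM totals, and CPM per kb divides it by exon length. Whole fragments could be recovered from FPKM in all libraries for 12982 of 13655 genes with a known length, and 96.4 to 97.0% of values of 1 to 100 fragments lay within 0.05 of a whole number. Fragment totals are from this recovery. Cells were clustered with scanpy 1.11.5 and leidenalg 0.10.2 (resolution 0.5) after removing the metabolic lists from the variable genes. The edgeR test of E13.5 against E12.5 was tried on simulated data. So were the limma tests of V580_D6 against V580_D4 and of V580_48h against Con_48h. The other steps were not.

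All 10 members are named. From each other list the text names the called gene with the largest rise or fall among those at 5 CPM or FPKM or more in the higher group and with no overlap of libraries. Gapdh and Eno1 were added after their values were seen. A further table with 10 columns that could not be matched to single samples was not used here.

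Alternatives were DESeq2 1.42.0, its size factors in edgeR, no filter, a pseudocount of 0.1, median centring, a length or lane term, a replicate block, only the 2 groups in the fit, leaving out each library, other single-cell filters and Leiden resolution 1.0, and, added after the data were seen, a count model on recovered fragments, V580 against AM580 and the interactions.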

Additional observations from a re-analysis of the deposited data

Results flagged for a closer look

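The interaction of Vc and AM580 at 48 h, that is the effect of Vc with AM580 minus its effect without it, was -0.74 for Slc2a1, -0.65 for Slc2a3 and -0.25 for Ldha on the log2 scale (limma, adjusted p = 7.79e-06, 3.93e-05 and 0.0338). Slc2a1 fell by 0.62 with Vc alone and by 1.36 from AM580 to V580, and Slc2a3 by 0.39 and by 1.04. The Ldha interaction did not pass with a replicate block (adjusted p = 0.0523 by limma).

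The effects of the compounds differed between 24 and 48 h, tested as the effect at 48 h minus that at 24 h. For Vc the difference was -0.59 for Pfkl, -0.65 for Pfkp, -0.59 for Pgk1, -0.38 for Slc2a1 and -0.36 for Slc2a3, and Pfkp went from a rise of 0.44 to a change of -0.21. For AM580 it was 1.91 for Slc2a3, 1.06 for Slc2a1, 0.63 for Pfkp, 0.35 for Hk1, 0.23 for Pfkl and -0.23 for Hk2. For V580 it was 0.92 for Slc2a3, -0.54 for Pgk1, -0.51 for Hk2, -0.35 for Ldha, -0.35 for Pfkl and -0.19 for Pkm. All passed at an adjusted p below 0.05 by limma, where 2.9%, 35.0% and 33.9% of all genes passed for Vc, AM580 and V580. The effects compared use the Con libraries of their own time point.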

How the results depend on the processing

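With the same direction and the same side of the threshold, all 50 member results of the stages stood under DESeq2 and all 50 under its size factors, 131 of 135 under the count model on recovered fragments, 176 of 185 with no filter, 198 of 198 with a pseudocount of 0.1, 192 of 198 with median centring, 227 of 248 with a length term, 37 of 50 with a lane term, 161 of 182 with only the 2 groups in the fit (10 gained and 11 lost a call) and 769 of 875 on leaving out 1 library. Reversed were Hk1 in E13.5 against E12.5 with a length term (0.37), Pfkp in E16.5 against E13.5 with a length term (-0.51), Hk2 in E16.5 against E12.5 with a lane term (-0.56) or without E16.5 replicate 2 (-0.57, against 0.69 without replicate 1), and Hk2 in P6w against E16.5 without E16.5 replicate 2 (0.51, against -0.75 without replicate 1). The cause was not tested.

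Asking for at least 2-fold left 2785, 2752 and 4924 genes, with 0, 0 and 1 members, in E13.5, E16.5 and P6w against E12.5, 4285 genes and 0 members in E16.5 against E13.5, and 5339 and 2 in P6w against E16.5. For V580_D4, D6, D8 and D10 against E12.5_GC it left 2354, 1747, 1493 and 1887 genes, with 3, 2 and 4 members from D6 on, and between the days 585 and 1 (D6 against D4), 293 and 2 (D8 against D6) and 149 and 0 (D10 against D8). For Vc, AM580 and V580 it left 9, 43 and 74 genes and 0 members at 24 h and 5, 344 and 339 genes with 0, 2 and 3 members at 48 h, for Con_48h against Con_24h 822 and 1, and for V580_D4 against V580_48h 1855 genes. Members called in E13.5 against E12.5 were 4 with a length term and 5 with only these groups in the fit. Vc at 24 h gave 250 genes and 1 member with only its 2 groups. The interaction at 24 h gave 8 genes with a length term and 1 with a replicate block, and the time interaction of Vc 466 genes with a length term.

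Leaving out 1 library, members called were 1 to 2 in E13.5 against E12.5 (1 without E12.5 replicate 2 or either E13.5 library), 2 to 7 in E16.5 against E12.5 (2 without E12.5 replicate 2, 7 without E16.5 replicate 1), 2 to 4 in P6w against E12.5 (2 and 3 without E12.5 replicates 1 and 2, 3 without P6w replicate 2), 3 to 7 in E16.5 against E13.5 (3 without either E13.5 library) and 5 to 8 in P6w against E16.5 (8 without E16.5 replicate 2). Genes called were 3814 to 6569 in E16.5 against E12.5, fewest without either E12.5 library, and at 24 h 846 to 1368 for Vc (fewest without either Con_24h library), 957 to 1306 for AM580 (without AM580_24h replicate 1 or 2 or Con_24h replicate 2) and 1992 to 2576 for V580 (without V580_24h replicate 2). Vc at 48 h gave 576 to 715 genes without any 1 of its 4 libraries, in place of 1324. In these fits 1 sample of a group is taken to vary like the others.

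Replicate numbers are shared across groups, but libraries with the same number did not deviate together (correlations of deviations from -0.43 to 0.39), so they were taken to share only a number. With a replicate block 4 of 248 member results lost and 2 gained a call and none reversed, Hk2 in Vc at 48 h (-0.19) among those lost, and the Ldha interaction at 48 h did not pass (-0.25, adjusted p = 0.0523 by limma). Pfkp had 102 to 131 recovered fragments per library in V580_D4, which limits its precision there.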
